A study of Mus musculus with 14 samples.

Results

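The 9 genes described here encode receptors through which growth factors and related cytokines act on myeloid cells. They were taken by symbol (Csf1r, Csf2ra, Csf2rb, Csf2rb2, Csf3r, Flt3, Kit, Il3ra and Il6ra). All 9 were listed among the 24980 genes of the table for dendritic cells and among the 17118 genes of the table for monocytes and macrophages. Csf1r, Flt3 and Kit encode receptor tyrosine kinases, which pair and phosphorylate each other when CSF1 or IL-34, FLT3 ligand or stem cell factor binds. Csf2ra and Il3ra encode the ligand-binding alpha chains for GM-CSF and IL-3, which signal with the common beta chain of Csf2rb or, for IL-3 in mice, the related chain of Csf2rb2. Csf3r encodes the G-CSF receptor of neutrophils and their precursors, and Il6ra the IL-6 binding chain, which signals with the shared gp130 chain of Il6st. In bone marrow, CSF1 sustains monocytes and macrophages, FLT3 ligand sustains dendritic cells and their precursors, and KIT marks stem cells, early progenitors and mast cells.

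Bulk RNA sequencing was done on 14 libraries of cells sorted from the marrow of Cx3cr1 gfp/+ mice, in which GFP replaces 1 copy of the gene of a chemokine receptor; the design text of the series calls the mice wildtype. Dendritic cells were GFP-high, MHC class II-high and CD11c-high, and lacked Gr-1 and B220. They were taken after vehicle (4 libraries) or after 1 dose of PAM3CSK4, a lipopeptide that activates TLR1/2 (4 libraries). Monocytes (3 libraries, GFP-high, CD115-positive, B220-negative, with Gr-1 low and high cells together) and macrophages (3 libraries, GFP-negative, MHC class II-high, CD169-positive, without Gr-1 and B220) were taken at baseline. The labels give no amount, interval, age or sex and do not say whether each library is a separate mouse. The p-values therefore cover only the scatter of the libraries at hand, part of which can be technical. CD115 is the product of Csf1r, so its difference between monocytes and macrophages was held by the gate.

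Values were read as CPM, reads scaled per library and not divided by gene length. The listed genes summed to 35.0% to 53.2% of the total that CPM refers to in libraries of dendritic cells and to 41.7% to 57.9% in the rest, so the listed values do not share 1 sum, and scaling them to a common total was tried as an alternative. If the smallest step of each library is 1 read, 1 CPM stood for 28.2 to 71.6 reads in libraries of dendritic cells and for 33.4 to 75.2 reads in the rest. PAM3CSK4 replicate 4 stood apart. Its 16 neutrophil markers summed to 12431 CPM against 652 to 1588 in the other PAM3CSK4 libraries and 620 to 1097 with vehicle, and its 13 conventional dendritic cell markers to 794 CPM against 4632 to 5804 and 9791 to 13021. In the libraries labelled macrophage, Siglec1, which encodes CD169, stood at 18.6 to 25.2 CPM and overlapped the monocyte range of 2.20 to 34.7. Resident macrophage markers, 11 with Siglec1 among them, had 5 called higher and 1 lower in these libraries than in monocytes. Their median log2 difference was 1.53, with overlapping sums of 260 to 407 CPM in these libraries and 93.3 to 305 CPM in monocytes. Of 12 stem and progenitor markers 9 were called higher in them than in monocytes and 1 lower (sums of 783 to 1696 against 425 to 944 CPM), 8 of 10 monocyte markers were called lower (405 to 806 against 6963 to 8543), and 14 of 16 neutrophil markers were called, 9 higher and 5 lower (1759 to 4166 against 2664 to 3679). They are therefore written as the libraries labelled macrophage where a direction is drawn from them.

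Csf2rb and Csf2rb2 lie beside each other on chromosome 15, and the sequence they share bears on every value given for them. In the transcripts used (GENCODE vM21, mm10), their coding sequences were 95.2% identical over 2628 aligned bases, and the longest run without a difference was 242 bases. The following 60 bases of coding sequence, each within 1 exon, hold 2 differences, in capitals. They are shown because this is the median number of differences among the aligned stretches of that length without a gap. The Csf2rb stretch is at chr15:78348115-78348174 on the plus strand and the Csf2rb2 stretch at chr15:78285277-78285336 on the minus strand.
Csf2rb: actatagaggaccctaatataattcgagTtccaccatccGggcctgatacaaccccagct
Csf2rb2: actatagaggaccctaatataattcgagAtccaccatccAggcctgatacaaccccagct
Of all 50-base stretches of the transcript, 18.4% for Csf2rb and 19.4% for Csf2rb2 also occurred in transcripts of other genes, and for Csf3r 11.2% did. The share was 0% for the other 6 genes. The values of Csf2rb and Csf2rb2 are thus uncertain as a split between the 2 genes, and their sum is given beside them. The values of Csf1r, Csf2ra, Flt3 and Il3ra lay on whole reads (within 0.05 reads) in all 14 libraries, and those of the other 5 genes did not, so part of their value was assigned in fractions of reads.

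Promoters of 7 of the genes were matched by symbol in RefSeq (GRCm38.p6). The 250 bases before the start are shown for the pair of genes called in dendritic cells, Csf3r and Il6ra, and for Csf2ra, which had PU.1 letters next to its start. Capitals mark matches of the motifs named after the sequences. The Csf3r stretch is chr4:126024409-126024658 on the plus strand, the Il6ra stretch chr3:89913197-89913446 on the minus strand and the Csf2ra stretch chr19:61228419-61228668 on the minus strand.
Csf3r: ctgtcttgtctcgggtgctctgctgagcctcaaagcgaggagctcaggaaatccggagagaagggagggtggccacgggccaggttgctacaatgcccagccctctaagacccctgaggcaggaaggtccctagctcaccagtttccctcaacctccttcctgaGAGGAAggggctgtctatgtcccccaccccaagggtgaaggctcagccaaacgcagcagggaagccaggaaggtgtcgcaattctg
Il6ra: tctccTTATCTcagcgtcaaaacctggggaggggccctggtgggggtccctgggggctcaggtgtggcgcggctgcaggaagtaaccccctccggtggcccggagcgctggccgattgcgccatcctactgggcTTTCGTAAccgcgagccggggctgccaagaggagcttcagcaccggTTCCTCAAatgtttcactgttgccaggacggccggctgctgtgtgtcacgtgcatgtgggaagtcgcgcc
Csf2ra: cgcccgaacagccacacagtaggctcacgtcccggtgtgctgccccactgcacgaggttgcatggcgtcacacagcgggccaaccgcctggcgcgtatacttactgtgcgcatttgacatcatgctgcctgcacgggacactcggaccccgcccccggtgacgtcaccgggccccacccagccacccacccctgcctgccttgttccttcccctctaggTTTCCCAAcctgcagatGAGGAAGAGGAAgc
Motifs were searched on both strands from 250 bases before to 50 after the start, for factors known to act on myeloid genes. GAGGAA, the PU.1 core, was in 5 of the 7 genes (Csf2ra, Csf2rb2, Csf3r, Il6ra and Kit) and in 28.3% of all 32851 promoters in the table. The C/EBP letters TTNNGNAA were in 4 (Csf2ra, Csf2rb2, Il3ra and Il6ra) and in 40.7% of promoters. In Il6ra and Csf2rb2 a PU.1 match and a C/EBP match overlapped in the same bases. The GATA letters AGATAA were only in Il6ra among the 7 (11.2% of promoters), and the STAT letters TTCNNNGAA only in Csf2rb2 (8.30%). RUNX letters (TGTGGT, 16.8% of promoters) and AP-1 letters (TGANTCA, 7.81%) were in 0 of the 7 windows. A match is a description of the letters and not a bound site.

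The first comparison asked how the receptor genes of dendritic cells differed after the TLR1/2 agonist. Il6ra was lower and Csf3r higher with PAM3CSK4, and these were the 2 of 9 genes called, that is, with an adjusted p under 0.05 from limma on log2(CPM + 1) adjusted by Benjamini-Hochberg across every gene in the test. Among all 11377 genes tested, 5.12% were called, 2.82% higher and 2.29% lower. The vehicle and PAM3CSK4 libraries did not overlap for 3 of the 9 genes (Il6ra, Csf3r and Csf2rb2), against 14.8% of all genes tested. The median log2 difference of the 9 genes was -0.39, and that of all genes tested was 0.20. All 9 genes passed the filter on low values, 1 CPM in at least 4 libraries. In these bulk samples, fewer cells that carry a transcript and less transcript per cell cannot be told apart.

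Markers of several cell types moved with the treatment. Monocyte markers summed to 1248 to 2034 CPM with vehicle and 562 to 802 CPM with PAM3CSK4, without overlap, and 3 of 10 were called lower and 0 higher (median log2 difference -0.60). Of 7 plasmacytoid dendritic cell markers tested, 4 were called higher and 0 lower (median 2.08; sums of 33.5 to 54.4 against 45.2 to 296 CPM), and of 7 erythroid markers, 3 higher and 0 lower (median 2.63; 18.2 to 183 against 92.9 to 1009 CPM). Of 13 conventional dendritic cell markers, 4 were called lower and 0 higher (median -1.68). Stem and progenitor markers had 2 of 10 tested called higher and 0 lower (median 0.90). Megakaryocyte and platelet markers had 2 of 4 called lower and 0 higher (median -1.13). Resident macrophage markers had 2 of 11 called higher and 1 lower (median -0.085). Mast cell and basophil markers had 1 of 6 called lower, and B and plasma cell and NK and T cell markers 0 of 4 each called. H2-Ab1, an MHC class II gene of the kind the gate used, was below the vehicle range of 1878 to 3155 CPM in every PAM3CSK4 library, at 194 to 1401 CPM, without passing the test (log2 difference -1.79, adjusted p 0.0635). The part of cell makeup in the receptor differences was not tested.

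**Figure D1:**
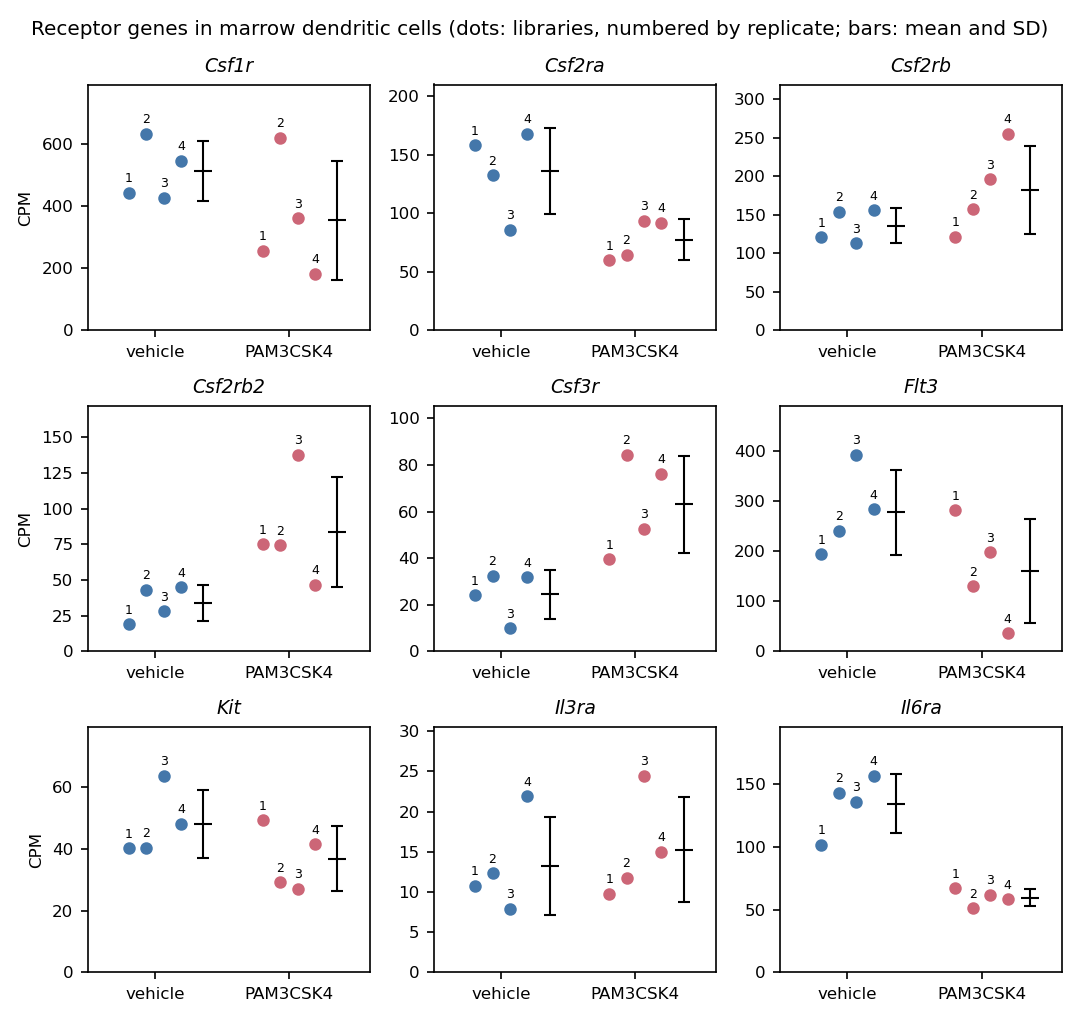
CPM of the 9 receptor genes in dendritic cells of mice given vehicle or PAM3CSK4 (dots, numbered by replicate; bars, mean and SD, 4 libraries each; axes start at 0). The groups do not overlap for Csf2rb2, Csf3r and Il6ra, and PAM3CSK4 replicate 4 is the lowest library for Csf1r and Flt3.

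Il6ra (chr3:89864059-89913196, minus strand) stood at 102, 143, 136 and 157 CPM in vehicle replicates 1 to 4 and at 67.1, 51.4, 61.8 and 58.5 CPM in PAM3CSK4 replicates 1 to 4. Every PAM3CSK4 library was below every vehicle library, and the PAM3CSK4 libraries were close together. The mean was 135 ± 23.5 CPM (SD, n = 4) with vehicle and 59.7 ± 6.57 CPM (SD, n = 4) with PAM3CSK4. The log2 difference was -1.15 ± 0.21 (SE; 95% interval -1.60 to -0.70), with an adjusted p of 0.0107 by limma. The call survived 7 of the 8 omissions of a library and was lost without vehicle replicate 2 (log2 difference -1.11, adjusted p 0.0511). It held without PAM3CSK4 replicate 4 (-1.14, adjusted p 0.00870). The exon of an antisense gene, Gm42809, overlaps 242 bases of Il6ra exons, and the strand setting of the counting is not given in the sources used here, so reads there cannot be told apart.

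Il6st, the gp130 chain with which the Il6ra product signals, was also lower in every PAM3CSK4 library, at 79.9 to 179 CPM against 224 to 410 CPM with vehicle. Its log2 difference of -1.03 ± 0.29 (SE) did not pass the test (adjusted p 0.0601). It passed without PAM3CSK4 replicate 1 (adjusted p 0.0350), under each of the 3 rescalings, with array weights and with the replicate number as a block (adjusted p 0.0168 to 0.0415). Without each of the other 7 libraries in turn it did not pass (adjusted p 0.0812 to 0.129). The highest of these was without vehicle replicate 3 (log2 difference -0.83), which alone had 410 CPM against 224 to 248 CPM in the rest of its group. Il6, the ligand, was listed at means of 0.0804 and 0.317 CPM in the vehicle and PAM3CSK4 groups, too low to be tested.

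Csf3r (chr4:126024550-126044440, plus strand) stood at 24.0, 32.4, 9.95 and 31.7 CPM in vehicle replicates 1 to 4 and at 39.5, 84.4, 52.6 and 76.3 CPM in PAM3CSK4 replicates 1 to 4. Every PAM3CSK4 library was above every vehicle library, with replicate 1 nearest to them. On the log2 scale it was higher by 1.40 ± 0.36 (SE; 95% interval 0.60 to 2.19) and the adjusted p 0.0481 by limma. This call rested on all but 1 of the libraries: it held only without PAM3CSK4 replicate 1 (adjusted p 0.0259), and without each of the other 7 in turn the adjusted p was 0.0531 to 0.116. The lowest of these values was without PAM3CSK4 replicate 4 (log2 difference 1.29) and the highest without vehicle replicate 1 (1.43). Without vehicle replicates 2, 3 and 4 the adjusted p was 0.0738, 0.0927 and 0.0659, and without PAM3CSK4 replicates 2 and 3 it was 0.102 and 0.0832. The call was also lost with a pseudocount of 0.1 (adjusted p 0.0524), with no filter on low values (0.134) and under each of the 3 rescalings (0.0732 to 0.087).

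Markers of neutrophils and their precursors, the cells in which Csf3r is best known, were read beside it. Of 15 markers tested, 1 was called higher and 0 lower, with a median log2 difference of 1.84, and Ly6g was below the filter. Their sum was 652 CPM in PAM3CSK4 replicate 1, where Csf3r was lowest of the treated libraries, and 1373, 1588 and 12431 CPM in replicates 3, 2 and 4. With vehicle the sum was 620 to 1097 CPM, and vehicle replicate 3, with the lowest Csf3r, had a sum of 757 CPM. Csf3r did not follow the sum into replicate 4, which had a far larger marker sum than replicate 2 and less Csf3r. The part of such cells in the Csf3r difference was not tested.

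**Figure D2:**
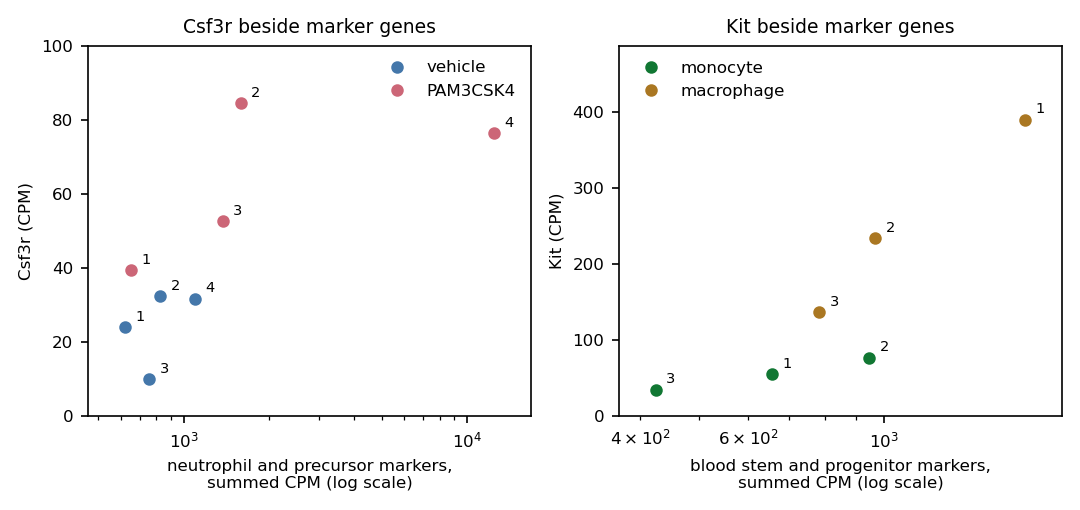
Left, Csf3r in CPM against the summed CPM of 16 neutrophil and precursor markers (log scale) in dendritic cell libraries; right, Kit in CPM against the summed CPM of 12 stem and progenitor markers (log scale) in monocyte libraries and those labelled macrophage. Each dot is a library numbered by replicate. PAM3CSK4 replicate 4 lies far to the right with 12431 CPM of neutrophil markers and 76.3 CPM of Csf3r, and Kit is highest where the progenitor sum is 1696 CPM.

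The beta chains were higher in PAM3CSK4 libraries on average, without a call. Csf2rb2 (chr15:78282507-78305721, minus strand) stood at 19.2, 43.3, 28.1 and 45.0 CPM in vehicle replicates 1 to 4 and at 75.0, 74.6, 138 and 46.7 CPM in PAM3CSK4 replicates 1 to 4. The groups did not overlap, although PAM3CSK4 replicate 4 was just above the highest vehicle library. On the log2 scale the difference was 1.25 ± 0.35 (SE; 95% interval 0.49 to 2.00) with an adjusted p of 0.0580. Without PAM3CSK4 replicate 4 it was 1.49 and passed (adjusted p 0.0119). Without each of the other 7 libraries in turn it did not pass (adjusted p 0.0643 to 0.161). Of 9 other settings it passed in 1, with array weights (adjusted p 0.00953), and not in 8 (up to 0.147). The groups did overlap with the median of each library centred and with quantile normalization.

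Csf2rb (chr15:78325752-78353847, plus strand) had 121, 154, 113 and 156 CPM with vehicle and 121, 157, 196 and 255 CPM with PAM3CSK4. The ranges overlapped, with the 2 highest libraries among those given PAM3CSK4. Its log2 difference was 0.38 ± 0.25 (SE; 95% interval -0.17 to 0.94), which did not pass (adjusted p 0.367), and without PAM3CSK4 replicate 4 it was 0.20. Summed, as an alternative chosen after the data were seen, the 2 genes had 170 ± 33.9 CPM (SD, n = 4) with vehicle and 266 ± 63.1 CPM (SD, n = 4) with PAM3CSK4, a log2 difference of 0.63 ± 0.24 (SE) and an adjusted p of 0.138.

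The alpha chains that pair with them were not called either. Csf2ra (chr19:61223957-61228429, minus strand) stood at 158, 132, 85.9 and 168 CPM with vehicle and at 59.9, 64.7, 93.7 and 91.9 CPM with PAM3CSK4. Vehicle replicate 3 lay among the PAM3CSK4 libraries, and the other 3 were above them all. The log2 difference of -0.79 ± 0.26 (SE; 95% interval -1.35 to -0.22) was not called (adjusted p 0.0980). It was called with the median of each library centred (adjusted p 0.0468) and with array weights, which give poorly fitting libraries less weight (-0.74, adjusted p 0.0378). In the other 7 of these 9 settings it was not called (adjusted p up to 0.168), nor in any of the 8 omissions of a library (0.0642 to 0.215).

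Il3ra (chr14:14346275-14356011, plus strand) had 10.8, 12.4, 7.92 and 21.9 CPM with vehicle and 9.80, 11.8, 24.5 and 15.0 CPM with PAM3CSK4. The libraries were interleaved. The log2 difference of 0.20 ± 0.34 (SE; 95% interval -0.53 to 0.93) equalled the median of all genes tested, and it turned to -0.017 when that median was removed and to -0.040 without PAM3CSK4 replicate 3. The interval includes a change of nearly 1 on the log2 scale, so equal levels are not shown.

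None of the 3 receptor tyrosine kinase genes was called, with 2835 of the 11377 genes under an unadjusted p of 0.05 and 582 called. Csf1r (chr18:61100598-61132149, plus strand) had 444, 634, 427 and 547 CPM with vehicle and 257, 621, 361 and 182 CPM with PAM3CSK4. Replicate 2 was the highest library of each group and the other PAM3CSK4 libraries were below all vehicle libraries. PAM3CSK4 libraries differed by -0.66 ± 0.34 on the log2 scale (SE; 95% interval -1.40 to 0.08; adjusted p 0.247), and without PAM3CSK4 replicate 4 it was -0.39. Exons of Hmgxb3 on the other strand overlap Csf1r exons over 873 bases.

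Flt3 (chr5:147330741-147400489, minus strand) had 194, 241, 393 and 284 CPM with vehicle and 282, 130, 198 and 35.8 CPM with PAM3CSK4. The groups overlapped, and PAM3CSK4 replicate 4 was far below all other libraries. The log2 difference of -1.07 ± 0.51 (SE; 95% interval -2.18 to 0.04; adjusted p 0.212) moved to -0.47 without this library (adjusted p 0.368). Itgax, which encodes CD11c, a dendritic cell marker used in the gate, was also lowest there, at 27.5 CPM against 170 to 283 CPM in the other 7 libraries.

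Kit (chr5:75574916-75656722, plus strand) had 40.2, 40.4, 63.8 and 48.3 CPM with vehicle and 49.4, 29.3, 27.1 and 41.5 CPM with PAM3CSK4. The ranges overlapped and the log2 difference of -0.39 ± 0.25 (SE; 95% interval -0.94 to 0.15) did not pass (adjusted p 0.344). Of the mast cell and basophil markers, which include genes of the other marrow cells rich in KIT, the sum was 38.4 to 84.0 CPM with vehicle, 15.3 to 32.5 CPM in PAM3CSK4 replicates 1 to 3 and 270 CPM in replicate 4. Mcpt4 and Tpsb2 were at the lowest listed value in all 8 libraries.

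The ligands of these receptors were hardly seen in dendritic cells. Of 9 ligand genes, 2 passed the filter and 0 were called. Csf1 had means of 2.48 and 5.19 CPM in the vehicle and PAM3CSK4 groups, where replicate 4 alone had 15.6 CPM, and its log2 difference of 0.38 turned to -0.28 without that library. Flt3l had 3.96 CPM with vehicle and 3.38 CPM with PAM3CSK4 (log2 difference -0.19, adjusted p 0.628). Csf2, Il3 and Il5 were at the lowest listed value in all 8 libraries, where 3 reads would be 0.0419 to 0.106 CPM. Il34, Csf3, Kitl and Il6 were below the filter.

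The lists of pathway genes below stand against 5.12% called among all genes tested (2.82% higher and 2.29% lower), which comes to about 1 gene in a list of 12 to 29 genes. Of 24 negative regulators tested, 2 were higher and 0 lower (median log2 difference 0.28). Socs3, which blocks JAK kinases bound to gp130 and to the G-CSF receptor, rose from 4.24 to 19.9 CPM with vehicle to 34.0 to 173 CPM (log2 difference 3.06, adjusted p 0.00885), and Ptpn1, a phosphatase that acts on JAK2 and TYK2, rose by 1.29 (adjusted p 0.0275). Ptpn6 (0.77, adjusted p 0.112) and Dok3 (0.84, adjusted p 0.155) did not pass. Of 16 genes known as targets of such signalling, 2 were likewise higher and 0 lower (median 0.16). These were Cd69, an activation marker (0.869 to 1.36 against 5.70 to 14.5 CPM; log2 difference 2.33, adjusted p 0.00138), and Ccnd2, a cyclin (1.57, adjusted p 0.0241). Bcl2, a survival factor, had a log2 difference of 0.90 (adjusted p 0.0972) and Mcl1, another, of -0.65 (adjusted p 0.132).

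Of 29 JAK, STAT and kinase genes tested, 3 were higher and 1 lower (median 0.17), where all genes had 2.82% and 2.29%. The Src-family kinase Fgr (log2 difference 1.38, adjusted p 0.0415) was called higher, but not under any of the 3 rescalings (adjusted p 0.0605 to 0.0863) nor with no filter on low values (0.122). Sos1, an exchange factor that activates RAS, rose (1.86, adjusted p 0.0257). Tyk2, a kinase of the JAK family, fell by 0.96 on the log2 scale (adjusted p 0.0255). Of 16 transcription factors known to act on receptor genes, 0 were higher and 3 lower (median 0.29). These were Klf4, a factor of monocytes (-1.10, adjusted p 0.0305), Zbtb46, a factor of conventional dendritic cells (-1.68, adjusted p 0.0314), and Irf4 (-2.19, adjusted p 0.0387). Hoxa9 had 1.27 (adjusted p 0.0537). Zbtb46 is also 1 of the 4 conventional dendritic cell markers called lower, and the part of cell makeup in these values was not tested.

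Of 12 genes of receptor shedding and turnover, 0 were higher and 1 lower (median 0.43), near the 5.12% called among all genes: Timp2, an inhibitor of metalloproteases, fell by 1.05 on the log2 scale (adjusted p 0.0217). Mmp14, a membrane metalloprotease, had 1.83 (adjusted p 0.0683), Rhbdf2, a partner of ADAM17, 1.08 (adjusted p 0.0866) and Stub1, a ubiquitin ligase, 0.73 (adjusted p 0.128). Of 5 related receptor chains tested, 0 were called (median 0.19): beside Il6st, Pdgfrb had 0.51, Il27ra 0.37 and Lifr -0.43, and Lifr turned to 0.20 without PAM3CSK4 replicate 4. Of the 12 called genes that the naming rule took from these lists, Socs3 and Cd69 kept their call with each of the 8 libraries left out in turn. With no filter on low values, Cd69, Tyk2 and Timp2 kept theirs, while those of Socs3, Klf4, Ptpn1, Ccnd2, Sos1, Zbtb46 and Irf4 were lost (adjusted p 0.0685, 0.0833, 0.0921, 0.0926, 0.103, 0.110 and 0.134). The 10 genes other than Socs3 and Cd69 each lost the call without at least 3 of the libraries, with an adjusted p of at most 0.108 (Fgr without vehicle replicate 3). The calls of Fgr, Sos1, Ptpn1, Ccnd2 and Irf4 were lost, among others, without vehicle replicate 1, where the adjusted p was 0.0966, 0.0937, 0.0859, 0.0812 and 0.106. Those of Tyk2, Timp2, Klf4 and Zbtb46 were lost, among others, without vehicle replicate 2, where it was 0.0823, 0.0799, 0.0905 and 0.0919.

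The second comparison set the libraries labelled macrophage against monocytes at baseline. Kit was higher in the libraries labelled macrophage, and Il6ra, Csf2ra, Csf3r, Csf2rb and Csf2rb2 were lower. Of the 8 genes tested, leaving out Csf1r for the gate, 6 were called, 1 higher and 5 lower. Among all 12188 genes tested, 20.2% were called, 12.8% higher and 7.42% lower. The groups did not overlap for any of the 8 genes, against 34.2% of all genes tested. The median log2 difference was -1.18 for the 8 genes and 0.10 for all genes. With 3 libraries against 3, an exact permutation test of 1 gene cannot go below 0.10, and all 8 genes reached that value, so the calls rest on the spread pooled over genes by limma.

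**Figure D3:**
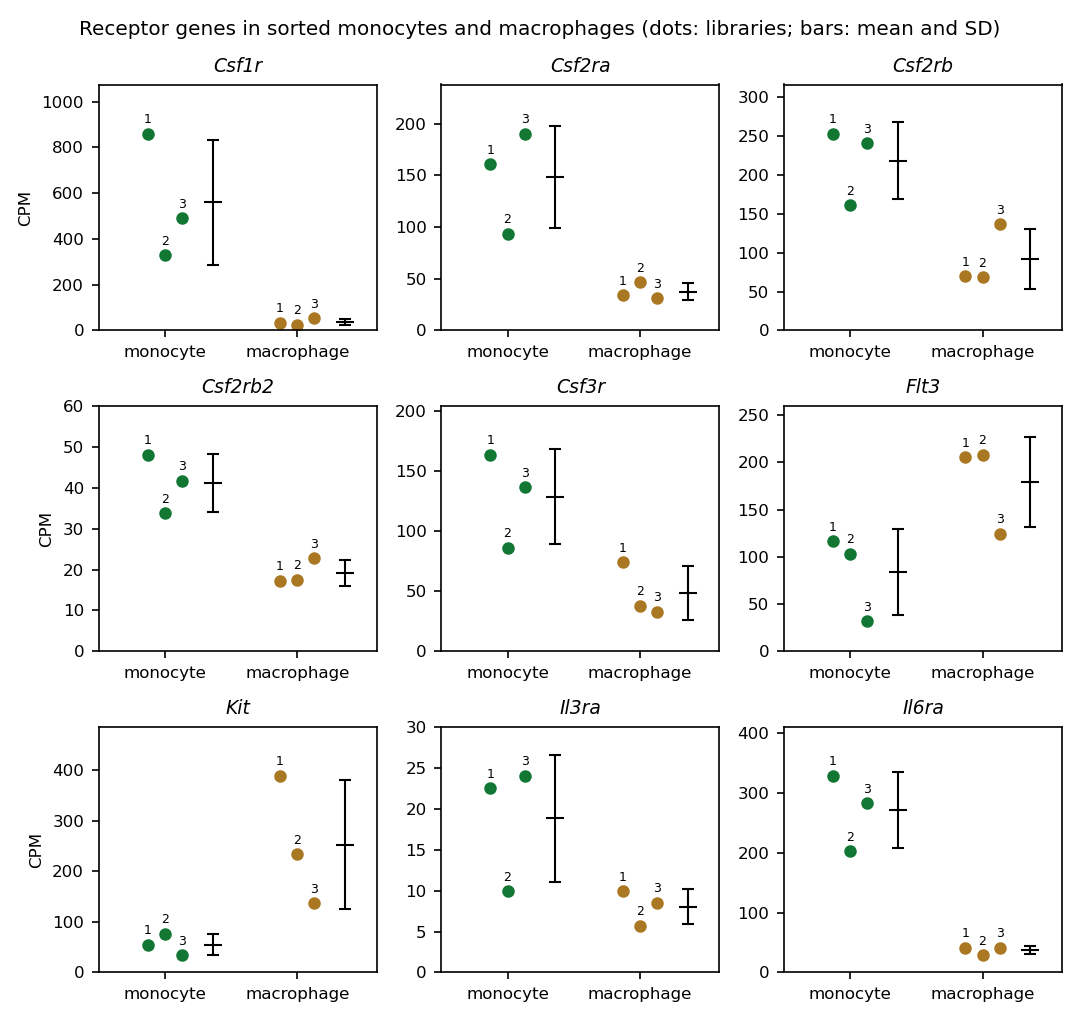
CPM of the 9 receptor genes in monocyte libraries and in libraries labelled macrophage (dots, numbered by replicate; bars, mean and SD, 3 libraries each; axes start at 0). The groups are apart for all 9 genes, with Flt3 and Kit higher and the other 7 lower in the libraries labelled macrophage.

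Kit stood at 54.7, 76.5 and 34.5 CPM in monocyte replicates 1 to 3 and at 389, 234 and 137 CPM in macrophage replicates 1 to 3. All libraries labelled macrophage were above the monocytes, with a wide spread among themselves. The mean was 55.3 ± 21.0 CPM (SD, n = 3) against 253 ± 128 CPM (SD, n = 3), a 4.58-fold ratio of means. The log2 difference was 2.12 ± 0.38 (SE; 95% interval 1.29 to 2.95; adjusted p 0.00199 by limma), and the call held with each of the 6 libraries left out (adjusted p 0.000250 to 0.0208).

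Markers of other cells rich in KIT had higher median sums in the libraries labelled macrophage than in monocytes. The stem and progenitor sum was 1696, 966 and 783 CPM in macrophage replicates 1 to 3, the same order as Kit, and 656, 944 and 425 CPM in monocyte replicates 1 to 3, where Kit also had that order. Monocyte replicate 2 had nearly the sum of macrophage replicate 2, with 76.5 against 234 CPM of Kit. Mast cell and basophil markers summed to 152, 80.5 and 118 CPM in macrophage replicates 1 to 3. In monocyte replicates 1 to 3 they summed to 34.2, 19.5 and 24.2 CPM. Within neither group was this the order of Kit, and in monocytes the sum was lowest where Kit was highest. Of these markers, 3 of 6 tested were called higher, while Cma1 was at the lowest listed value in all 6 libraries. The part of such cells in the Kit difference was not tested.

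Flt3, the receptor gene linked to dendritic cells, stood at 117, 103 and 32.0 CPM in monocyte replicates 1 to 3 and at 205, 208 and 125 CPM in the libraries labelled macrophage. The groups were apart by a small margin, between monocyte replicate 1 and macrophage replicate 3. The log2 difference of 1.25 ± 0.43 (SE; 95% interval 0.32 to 2.18) was not called (adjusted p 0.0593). It was called without monocyte replicate 1 (1.58, adjusted p 0.00624), without monocyte replicate 2 (1.50, adjusted p 0.0447) or without macrophage replicate 3 (1.49, adjusted p 0.0336), and without monocyte replicate 3 it was 0.66 (adjusted p 0.238). Without macrophage replicate 1 or 2 it was not called either (adjusted p 0.227 and 0.213). It was also called with array weights (adjusted p 0.00198), with quantile normalization (0.0475) and with the replicate block (0.0144). In the other 6 of these 9 settings it was not called (adjusted p up to 0.126). The array weights were 0.948, 0.220 and 7.80 for monocyte replicates 1 to 3, so that fit leaned on monocyte replicate 3, where Flt3 was lowest. Conventional dendritic cell markers summed to 3368, 659 and 300 CPM in monocyte replicates 1 to 3 and to 2006 to 3977 CPM in the libraries labelled macrophage, so monocyte replicate 1 stood apart from the other monocytes and within the range of the others. Of these 13 markers, 3 were called higher and 3 lower. H2-Ab1 likewise had 42.2, 75.8 and 596 CPM in monocytes, from the lowest to the highest, and 370 to 933 CPM in the libraries labelled macrophage. The part of dendritic cells in the Flt3 values was not tested.

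Csf1r stood at 860, 328 and 490 CPM in monocytes and at 33.6, 24.9 and 52.9 CPM in the libraries labelled macrophage. Every library labelled macrophage was far below every monocyte library, a 15.1-fold ratio of means. Since CD115 chose the monocytes, this is a description with no test. The depth behind the low values was at least 1123 reads in each library, so the gene was well measured there.

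Il6ra showed the largest difference of the 8 genes tested. It stood at 329, 202 and 282 CPM in monocytes and at 41.6, 28.9 and 41.2 CPM in the libraries labelled macrophage. The groups were far apart, with a 7.28-fold ratio of means, and the log2 difference was -2.82 ± 0.27 (SE; 95% interval -3.40 to -2.24; adjusted p 3.19e-05 by limma). Its partner Il6st was lower as well, at 42.2 to 88.3 CPM against 238 to 358 CPM (-2.18, adjusted p 0.000311), as was the related chain Lifr, at 2.72 to 9.71 CPM against 28.0 to 50.8 CPM (-2.61, adjusted p 0.000533).

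Csf2ra stood at 161, 93.7 and 190 CPM in monocytes and at 33.8, 46.6 and 31.2 CPM in the libraries labelled macrophage. The lowest monocyte library, replicate 2, was still above all libraries labelled macrophage. The log2 difference was -1.93 ± 0.30 (SE; adjusted p 0.000706). The calls of Il6ra and Csf2ra held with each of the 6 libraries left out. Il3ra, the other alpha chain, stood at 22.5, 9.95 and 24.0 CPM in monocytes and at 9.93, 5.69 and 8.52 CPM. The groups met at the margin, monocyte replicate 2 against macrophage replicate 1, and the log2 difference of -1.07 ± 0.36 (SE; 95% interval -1.85 to -0.29) was not called (adjusted p 0.0556). It was called without monocyte replicate 2 (-1.45, adjusted p 0.00535), with array weights (adjusted p 0.000374), with quantile normalization (0.0199), with the median of each library centred (0.0330) and with the replicate block (0.0211). Without each of the other 5 libraries in turn it was not called (adjusted p 0.0878 to 0.219). Nor was it called in 5 of the 9 other settings (up to 0.105). The array weights leaned on monocyte replicate 3 (7.80), where Il3ra was highest.

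Csf2rb stood at 253, 161 and 241 CPM in monocytes and at 70.0, 68.4 and 137 CPM in the libraries labelled macrophage, of which replicate 3 came near the lowest monocyte library. The log2 difference was -1.29 ± 0.31 (SE; adjusted p 0.0112), and the call was lost without macrophage replicate 1 (adjusted p 0.0751) or 2 (adjusted p 0.0653). Csf2rb2 stood at 48.1, 33.8 and 41.8 CPM in monocytes and at 17.3, 17.5 and 22.8 CPM in the others, with close values within each group. Its log2 difference was -1.06 ± 0.25 (SE; adjusted p 0.0109), lost without macrophage replicate 1 (adjusted p 0.0503). Summed, the 2 beta chain genes differed by -1.26 ± 0.30 (SE; adjusted p 0.0105 by limma). Csf2rb gave most of this sum, with a mean of 218 CPM in monocytes against 41.2 CPM for Csf2rb2. The sum therefore does not show the direction of Csf2rb2 alone.

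Csf3r stood at 164, 86.4 and 137 CPM in monocytes and at 74.0, 38.0 and 33.1 CPM in the libraries labelled macrophage. Macrophage replicate 1 came nearest to the monocytes, and it also had the highest neutrophil marker sum of the 6 libraries, at 4166 CPM against 1759 and 2011 CPM in replicates 2 and 3. This gave a log2 difference of -1.44 ± 0.34 (SE; adjusted p 0.00947), and the call was lost without macrophage replicate 2 (-1.31, adjusted p 0.0599). The part of neutrophil precursors in this value was not tested.

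**Figure D4:**
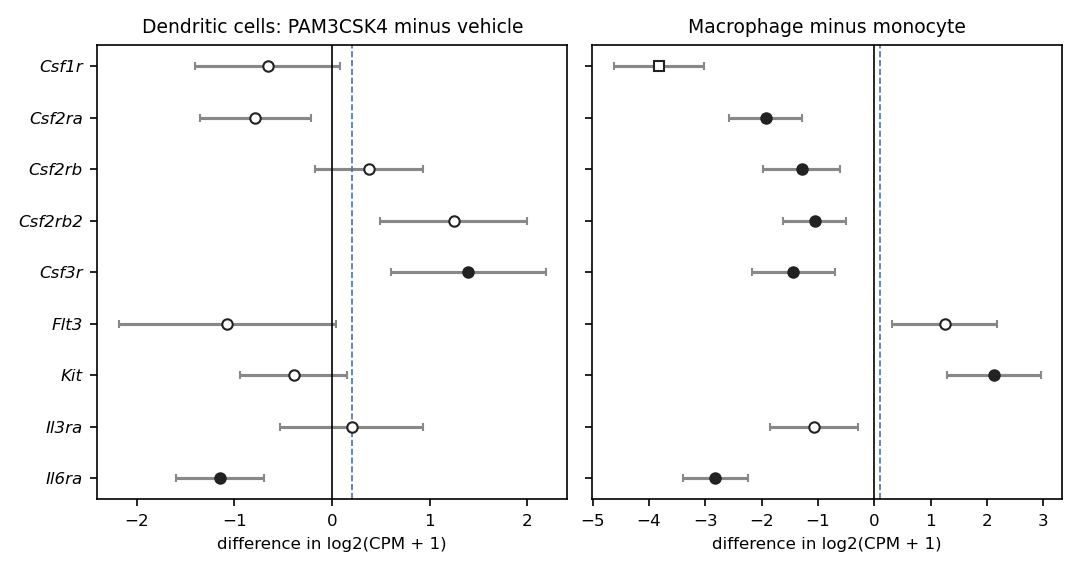
Difference in log2(CPM + 1) with its 95% interval (limma) for the 9 receptor genes in dendritic cells given PAM3CSK4 against vehicle (left) and in libraries labelled macrophage against monocytes (right). Filled circles passed an adjusted p of 0.05, open circles did not, the open square is Csf1r, not tested because of the gate, and dashed lines mark the median of all genes tested (0.20 and 0.10). Il6ra is called lower in both panels, and Csf3r is called higher on the left and lower on the right.

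Other genes of the pathway differed in both directions between these populations, where 20.2% of all genes were called (12.8% higher and 7.42% lower). Of 3 ligand genes tested, 2 were higher in the libraries labelled macrophage. Csf1 had 0.781 to 3.50 CPM in monocytes and 7.15 to 7.75 CPM in the others (log2 difference 1.51, adjusted p 0.00962; 0.0524 without macrophage replicate 1). Kitl, the ligand of KIT, had at most 0.661 CPM in monocytes and 1.23 to 2.51 CPM in the others (1.24, adjusted p 0.0157; 0.0794 without monocyte replicate 3 and 0.0632 without macrophage replicate 1). Quantile normalization ended both calls (adjusted p 0.0642 and 0.336). Flt3l differed by 0.31 (adjusted p 0.523), and by -0.34 after quantile normalization. Il34, Csf2, Csf3, Il5 and Il6 had means under 1 CPM in both groups, and Il3 was not listed in this table.

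Of 9 related receptor chains tested, 6 were higher and 2 lower (median 1.97). Il27ra, which pairs with gp130, had 1.07 to 2.74 CPM in monocytes and 13.3 to 26.7 CPM in the libraries labelled macrophage (log2 difference 2.89, adjusted p 0.000151). Of 29 JAK, STAT and kinase genes, 1 was higher and 8 lower (median -0.34), among the latter Fgr (-2.81, adjusted p 0.000127), the adaptors Tyrobp (-2.33, adjusted p 0.000164) and Gab2 (-1.44, adjusted p 0.00146), and Lyn (-1.36, adjusted p 0.00161).

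Of 26 negative regulators, 7 were higher and 5 lower (median -0.13). The STAT5-induced feedback genes Socs2 (0.0376 to 1.22 against 7.26 to 12.3 CPM; adjusted p 0.000203) and Cish (0.581 to 0.900 against 5.50 to 13.4 CPM; adjusted p 0.000283) were higher, as were the adaptors Sla2 (adjusted p 0.000164) and Dok2 (adjusted p 0.00112). Of 16 target genes, 6 were higher and 1 lower (median 0.90), with Egr1 (4.23, adjusted p 0.000138), Pim2 (2.30, adjusted p 0.00115), Id2 (2.07, adjusted p 0.00133) and Pim1 (1.62, adjusted p 0.00267) in front. Of 17 transcription factors, 7 were higher and 5 lower (median 0.50). Klf4 fell by 3.47 on the log2 scale (adjusted p 1.63e-05), while the stem cell and erythroid factors Gata2 (3.84, adjusted p 7.87e-05), Gata1 (2.95, adjusted p 0.000280) and Meis1 (2.88, adjusted p 0.000338) were higher. Gata2 and Meis1 are also among the stem and progenitor markers counted above. Markers of other blood cells were higher in the same libraries. Of 8 erythroid markers all 8 were called higher (sums of 194 to 737 against 6.93 to 63.3 CPM in monocytes), of 5 megakaryocyte and platelet markers tested 4 (76.7 to 250 against 11.5 to 19.1 CPM), of 8 B and plasma cell markers 7 (554 to 8264 against 112 to 131 CPM) and of 7 NK and T cell markers 6 (109 to 326 against 10.6 to 22.6 CPM), with 0 called lower. The part of such cells in these differences was not tested. Of 13 shedding and turnover genes, 3 were higher and 0 lower (median 0.03), a count close to the share among all genes: Timp3 (2.57, adjusted p 0.000193), Adam8 (2.79, adjusted p 0.000807) and Rhbdf1 (1.49, adjusted p 0.0245), the last lost without monocyte replicate 2, macrophage replicate 1 or macrophage replicate 3 (adjusted p 0.0719, 0.114 and 0.0571). Rhbdf2 differed by -1.07 (adjusted p 0.0753). Of the 25 called genes that the naming rule took from these lists, 22 kept the call whichever of the 6 libraries was left out, and the exceptions were Csf1, Kitl and Rhbdf1.

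The dendritic cell columns of the second table carry no treatment in their names and were not used, so dendritic cells were not tested against the other populations. Values of the 4 genes that lay on whole reads in all 14 libraries are set side by side across the tables, which were made separately. Csf1r was 513 ± 96.4 CPM (SD, n = 4) in vehicle dendritic cells, 559 ± 273 CPM (SD, n = 3) in monocytes and 37.1 ± 14.3 CPM (SD, n = 3) in the libraries labelled macrophage. The first 2 ranges overlapped, and the last was below both. Csf2ra had the same order of ranges, at 136 ± 36.6, 148 ± 49.5 and 37.2 ± 8.24 CPM (SD; n = 4, 3 and 3).

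Flt3 ran the other way, with 278 ± 84.7 CPM (SD, n = 4) in vehicle dendritic cells, 179 ± 47.4 CPM (SD, n = 3) in the libraries labelled macrophage and 84.0 ± 45.6 CPM (SD, n = 3) in monocytes. The ranges of vehicle dendritic cells and libraries labelled macrophage overlapped, and the monocyte range was below both. Il3ra was low throughout, at 13.3 ± 6.08, 8.05 ± 2.16 and 18.8 ± 7.73 CPM (SD; n = 4, 3 and 3) in the same order, with overlapping ranges of vehicle dendritic cells and each of the others.

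**Figure D5:**
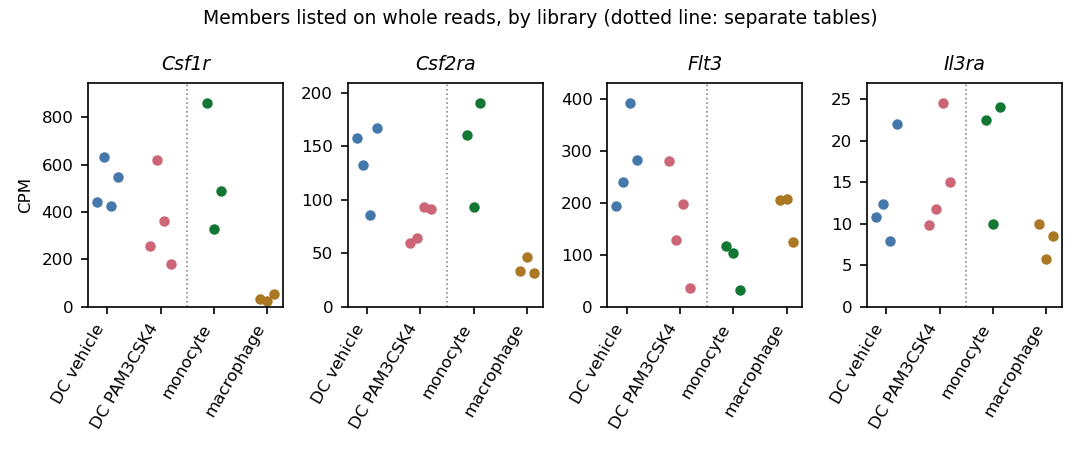
CPM by library of the 4 receptor genes whose values lay on whole reads, in dendritic cells given vehicle or PAM3CSK4, monocytes and libraries labelled macrophage (dots, libraries; axes start at 0). The dotted line separates 2 tables between which no test was made; Csf1r and Csf2ra are low in libraries labelled macrophage and Flt3 is low in monocytes.

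Levels of different genes compare only per length, so CPM was divided by the kilobases of exon annotated in any transcript of the gene. For Il6ra this was 8642 bases, against 3343 in the transcript searched for shared stretches above. For Csf3r it was 3609 against 3481 bases, and for Csf2rb2 4740 in both. The order of the genes therefore depends on the length chosen, and it was not worked out per transcript. In vehicle dendritic cells Csf1r led with 88.8 ± 16.7 CPM per kb (SD, n = 4), and its range of 74.0 to 110 lay above all the others. Csf2ra (29.9 to 58.4 CPM per kb) and Flt3 (31.5 to 63.6) followed with overlapping ranges, then Csf2rb (15.5 to 21.5) and Il6ra (11.8 to 18.2), also overlapping. Csf2rb2, Csf3r, Kit and Il3ra formed the lowest set, between 2.67 and 9.49 CPM per kb, and did not separate from each other. With PAM3CSK4, Csf2rb2 (9.86 to 29.1 CPM per kb) and Csf3r (10.9 to 23.4) had ranges above that of Il6ra (5.95 to 7.76), the reverse of their order with vehicle. This reversal rests on the exon length taken for Il6ra.

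In monocytes Csf1r led again (56.8 to 149 CPM per kb), overlapping Csf2ra (32.6 to 66.3), and Csf3r, Il6ra and Csf2rb followed between 22.2 and 45.3 CPM per kb, overlapping each other. Flt3 (5.18 to 18.9), Csf2rb2, Il3ra and Kit were below them. In the libraries labelled macrophage the order began with Flt3 (20.2 to 33.7 CPM per kb) and Kit (15.3 to 43.7), which overlapped. Csf3r, Csf2ra and Csf2rb followed between 9.18 and 20.5 CPM per kb, and Csf1r was at 4.31 to 9.16, below them and overlapping Il6ra and Csf2rb2. Kit was in the lowest pair in monocytes, at 6.20 ± 2.36 CPM per kb (SD, n = 3; 3.87 to 8.59) with Il3ra overlapping it (3.35 to 8.10), and at 28.4 ± 14.3 (SD, n = 3) in the libraries labelled macrophage, level with Flt3. Il3ra was last there at 1.92 to 3.35 CPM per kb.

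Genes whose pattern was most like that of each receptor over the 8 dendritic cell libraries were named by Pearson correlation on log2(CPM + 1), as a description over libraries that share their groups and depth. Flt3 was followed most closely by Lat2 (r = 0.99), Mycl (0.99) and Uvrag (0.99), which like Flt3 had lower means with PAM3CSK4. Il6ra was followed by Adora2b (0.99), an adenosine receptor, Unc119b (0.99) and Trappc5 (0.98), with mean CPM of 11.7 and 3.89, 88.4 and 26.0, and 61.3 and 22.7 with vehicle and PAM3CSK4. Csf2rb2 was followed by Stat3 (0.98), a signal carrier of gp130 and the G-CSF receptor, with means of 61.1 and 109 CPM in the vehicle and PAM3CSK4 groups, and then by 5830417I10Rik (0.96) and Mast2 (0.95).

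Csf2rb was followed by Shmt2 (0.99), a mitochondrial enzyme of folate metabolism, Ifrd2 (0.98) and Bop1 (0.98), and Csf3r by Pde6d, Crat (0.98 each) and 2410015M20Rik (0.97). Csf2ra was followed by the immediate early genes Fosb (0.96) and Ier2 (0.95), both lower on average with PAM3CSK4, and by Ptcd1 (0.94). For Csf1r the nearest were Mob3c (0.97), Parp14 (0.95) and Tnfsf12 (0.95), for Kit Bid (0.95), Tmem71 (0.95) and Cir1 (0.93), and for Il3ra Atf6b (0.98), Pcnx3 (0.97) and Znhit2 (0.97). With 8 libraries and many genes to choose from, the highest values are high for every receptor.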

How the data were processed

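Gene expression was measured by RNA sequencing in 14 libraries of sorted mouse marrow cells. Per the labels' protocols, RNA was purified with a column kit and libraries were made after depletion of ribosomal RNA. The authors deposited 2 tables of values per gene named FPKM, which were read here as CPM. The reason was that the low values of a library lay on multiples of 1 step, the same for genes of short and long span on the genome. Of the values of at most 50 steps, 65.9% to 68.6% in the libraries of dendritic cells and 87.6% to 90.5% in the rest were whole to within 0.05 steps. Genes were also split into terciles by their span on the genome, introns included, and not by exon length. This share was 76.0% to 80.0% for the shortest tercile and 58.0% to 60.6% for the longest tercile in the first table. In the second it was 85.7% to 89.7% and 90.9% to 93.0%. Per the submitters' processing notes, STAR 2.5.3a and Partek were used with mm10. The sources used here give neither the role of each tool nor the annotation or strand setting. Another 3 columns of the second table, whose names give no treatment, were not used.

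Each table was fitted on its own, in R 4.3.3 with limma 3.58.1 (eBayes with trend, two-sided), using log2(CPM + 1) and adjusting p by Benjamini-Hochberg over genes with at least 1 CPM in 4 (dendritic cells) or 3 libraries and a threshold of 0.05. This scale understates the change of low genes. The plan allowed for FPKM or CPM with the same test. The script was tested on simulated data. The members, gene lists and tests were chosen with earlier results of these data known. Named are all 9 receptors, from each list up to 4 genes in order of unadjusted p, every ligand, the gate genes and the 3 genes most like each receptor. Some genes that this rule takes are not reported here. Promoters are from RefSeq and gene models from GENCODE vM21. Alternatives were other pseudocounts, filters and scalings, array weights, the replicate number as a block, exact permutation tests and leaving out each library. The labels do not say what the shared replicate numbers stand for. They were not taken to pair the samples.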

Additional observations from a re-analysis of the deposited data

Results flagged for a closer look

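Groups of 4 dendritic cell libraries were checked for a library far from the other 3 (receptors, genes named from the lists, gate genes and marker sums). Of 104 such groups, 11 had one. The limit used is passed by about 1 in 20 groups where values are normally distributed and the groups independent. CPM values and their sums need not be normal, and these groups share libraries, so the 11 were not tested against chance. No receptor gene was among the 11. In PAM3CSK4 replicate 4 the summed neutrophil and precursor markers were 12430.6 CPM (651.907 to 1587.77 in the other 3), the mast cell and basophil markers 270.261 CPM (15.3374 to 32.4986), the NK and T cell markers 32.4094 CPM (5.27987 to 9.67143), Ly6c2 170.095 CPM (16.9367 to 23.6392) and Csf1 15.5945 CPM (1.16495 to 2.38724), each the highest of its group. In PAM3CSK4 replicate 2, Tyk2 was the lowest of its group at 37.9136 CPM (51.128 to 52.6899). In vehicle replicate 3, Il6st was the highest at 409.507 CPM (223.704 to 247.615), the NK and T cell markers were the highest at 42.3685 CPM (9.32918 to 14.5577) and Fgr was the lowest at 56.2019 CPM (97.4008 to 103.912). The resident macrophage markers were highest in vehicle replicate 2 at 891.541 CPM (503.863 to 526.124), and the erythroid markers in vehicle replicate 4 at 182.955 CPM (18.2358 to 41.9487). The cause of these values was not tested.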

How the results depend on the processing

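With PAM3CSK4, 2 receptor genes were called. The number was 1 with a pseudocount of 0.1, with no filter on low values, with libraries rescaled to a common total and with quantile normalization, and 4 with array weights. It was 0 to 2 with 1 library left out, and 0 without vehicle replicate 2. The number of all genes called, 582, was 166 with no filter, 1649 with array weights, 976 with the replicate block and 184 to 1008 with 1 library left out. Rescaling to a common total, median centring and quantile normalization moved the split of higher and lower calls from 321 and 261 to 276 and 390, 208 and 487, and 237 and 438, and the median of all genes from 0.20 to 0.07, -0.02 and 0.02. With the replicate block the receptor calls in dendritic cells were 2, as without it.

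Between libraries labelled macrophage and monocytes, 6 receptor genes were called, and 4 to 8 under the alternative limma fits. Exact permutation tests, which cannot go below 0.10 with these group sizes, could not call any gene. All 8 were called with the replicate block (Flt3 and Il3ra at an adjusted p of 0.0144 and 0.0211), with array weights (0.00198 and 0.000374) and with quantile normalization (0.0475 and 0.0199). Deviations of same-numbered libraries correlated by 0.08 to 0.18 and those of differently numbered ones by -0.12 to 0.02, and 3 of 3 monocyte libraries correlated best with their own number, a hint from the data and not from the labels. In the dendritic cell table the ranges were -0.12 to 0.30 and -0.38 to 0.20, and 3 of 4 vehicle libraries correlated best with their own number. The number of all genes called, 2468, was 5471 with array weights, 2609 with the block and 1699 to 3364 with 1 library left out. The split of 1564 higher and 904 lower was 2068 and 768, 1370 and 1303, and 1004 and 1238 under the same 3 rescalings, and the median of all genes, 0.10, was 0.26, -0.02 and -0.03. Directions that turned were those of Il3ra with PAM3CSK4 (-0.017 with median centring; -0.040 to 0.46 with 1 library left out, the lowest without PAM3CSK4 replicate 3), Csf1 (-0.23 with array weights; -0.28 without PAM3CSK4 replicate 4, up to 0.70 without another library), Lifr (-0.76 to 0.20 with 1 library left out, the highest without PAM3CSK4 replicate 4) and Flt3l between the populations (-0.34 with quantile normalization); none of these genes was called lower or higher in that comparison. The cause was not tested. Leaving out a library also changes the number of samples and of genes tested.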
